A study of Mus musculus with 12 samples.

Results

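A set of 7 genes that tie tuft cells to type 2 immunity was followed across the sorted crypt cells of the small intestine. They are Il25, Tslp, Il17rb, Chat, Ptprc, Il13ra1 and Il4ra, and each was found by its mouse gene symbol among the 55414 genes of the count table, in all 12 libraries. All 7 were in the table. A filter on low counts left 13057 genes for testing, among them 5 of the 7 (Il17rb, Chat, Ptprc, Il13ra1 and Il4ra), while Il25 and Tslp fell below it and are given as counts.

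Bulk RNA-seq was done on cells sorted from small-intestinal crypts of naive C57BL/6J mice of 8 to 12 weeks of age, without any treatment. There were 4 groups of 3 libraries, which were WT Paneth, GRKO Paneth, WT non-Paneth and GRKO non-Paneth cells. GRKO stands for GRvillinKO mice, in which the glucocorticoid receptor gene Nr3c1 is deleted in cells that express villin. Villin is a protein of the whole intestinal epithelium, Paneth and tuft cells included, and not of immune cells. The labels name no deletion for the WT mice. Paneth cells were taken as CD24+ cKIT+ cells of medium to high side scatter without CD31, CD45 and TER119 on their surface. How the non-Paneth cells were gated is not stated in the sources used here. The genotype was read from the sample titles, because the genotype field gives all Paneth samples one genotype and all non-Paneth samples the other. The labels do not say whether the libraries of a group came from separate mice. The gene Xist, given below, was high in both WT replicate 2 libraries and near absent in the other WT libraries. The libraries of a WT group thus did not all come from the same mouse. For the remaining WT libraries and for the GRKO groups this was not tested. The p-values measure the spread between these samples, which may then be technical in part.

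Tuft cells are rare chemosensory cells of the epithelium. They release the cytokine IL-25, which acts on group 2 innate lymphoid cells through a receptor of IL-17RB and IL-17RA, and these cells answer with IL-13. IL-13 signals to the epithelium through IL-4Rα and IL-13Rα1, with JAK kinases and STAT6, and shifts the crypt towards tuft and goblet cells. TSLP is a further epithelial cytokine that promotes type 2 responses. Tuft cells also make acetylcholine with the enzyme encoded by Chat, and they are known to carry transcripts of Ptprc, the gene of the leukocyte surface protein CD45.

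The libraries held 11126297 to 15910292 counts. Levels are given as CPM, counts relative to the size of the library, after TMM scaling, which divides out differences in library composition. Nr3c1 lay between 40.9 and 54.1 CPM in WT Paneth and between 5.82 and 15.4 CPM in GRKO Paneth libraries, and between 110 and 131 CPM in WT non-Paneth and 13.1 and 24.5 CPM in GRKO non-Paneth libraries. It fell in both fractions, by 2.31 and 2.67 on the log2 scale (edgeR's quasi-likelihood test, adjusted p = 0.0331 and 6.66e-05), as the titles label the libraries. GRKO replicate 3 had the highest Nr3c1 of its group in both fractions. WT replicate 2 alone carried Xist, at 193 and 215 CPM in its 2 fractions against at most 0.428 CPM in the other 10 libraries. The sexes of the mice were not given and were not modelled.

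The label of the gene set was checked against 25 tuft cell markers, such as Dclk1, Trpm5, Pou2f3 and Avil. Their counts summed to 371 to 986 CPM in WT Paneth, 856 to 2582 CPM in GRKO Paneth, 9.42 to 22.4 CPM in WT non-Paneth and 140 to 596 CPM in GRKO non-Paneth libraries. In both fractions, GRKO replicates 1 and 2 were high and GRKO replicate 3 was the lowest of its group. Between the fractions of each genotype, 24 of the 25 markers passed and were higher in Paneth cells. Of all tested genes 50.7% passed there in WT and 39.2% in GRKO. The median log2 fold change of the markers was 5.77 in WT and 2.28 in GRKO. How far Paneth cells themselves held the transcripts of the 7 genes was not tested. Against WT, 22 of the 25 markers rose in GRKO non-Paneth cells, where 37.3% of all tested genes passed in either direction, with a median log2 fold change of 4.78, and in GRKO Paneth cells none passed edgeR's test while all 25 fold changes were positive, with a median of 1.42. In that comparison 14 of the 25 had an unadjusted p under 0.05, as did 26.7% of all tested genes, and DESeq2 called 5 of the 25 and 12.3% of 11893 genes. Without the filter on low counts edgeR called 23 of the 25 higher there, and 7.39% of 24077 genes in either direction. Over the 12 libraries, Spearman's rho with the summed markers was 0.92 for Il25, 0.92 for Chat, 0.90 for Il17rb, 0.85 for Ptprc, 0.82 for Tslp, 0.46 for Il13ra1 and -0.23 for Il4ra. These values describe libraries that share group and sort. Thus 5 of the 7 genes had a rho of 0.82 or more with the tuft cell markers. Both receptor genes for IL-4 and IL-13 followed the markers less closely or not at all. Tslp had only 0 to 6 counts per library. In GRKO Paneth replicates 1 to 3 it was at 0.242, 0.353 and 0.473 CPM, where the markers summed to 1993, 2582 and 856 CPM. These values rest on 2, 4 and 5 counts, too few to tell whether Tslp followed the markers within that group. In bulk samples fewer tuft cells and less RNA per tuft cell cannot be told apart.

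Of the 5 tested genes, 3 passed the 5% false discovery rate between the WT fractions, where 50.7% of all tested genes did. Chat and Il17rb were higher in WT Paneth and Il4ra higher in WT non-Paneth cells. Between the GRKO fractions, Chat and Il17rb passed, 2 of 5 against 39.2% of all genes. Between the genotypes in Paneth cells none of the 5 passed, against 3.22% of all genes, and 2 of the 5 had an unadjusted p under 0.05 (Chat and Il4ra). DESeq2 called none of these 5 in that comparison either. Without the filter on low counts edgeR called 3, Chat, Ptprc and Il13ra1, all higher in GRKO, where 7.39% of 24077 genes passed. In non-Paneth cells 2 of 5 passed, against 37.3% of all genes, with Chat higher and Il4ra lower in GRKO. The genotype effect differed between the fractions for 1 of the 5, Il4ra, against 18.7% of all genes. A share of 2 or 3 in 5 is near these backgrounds, and the counts are no result about the set.

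**Figure D1:**
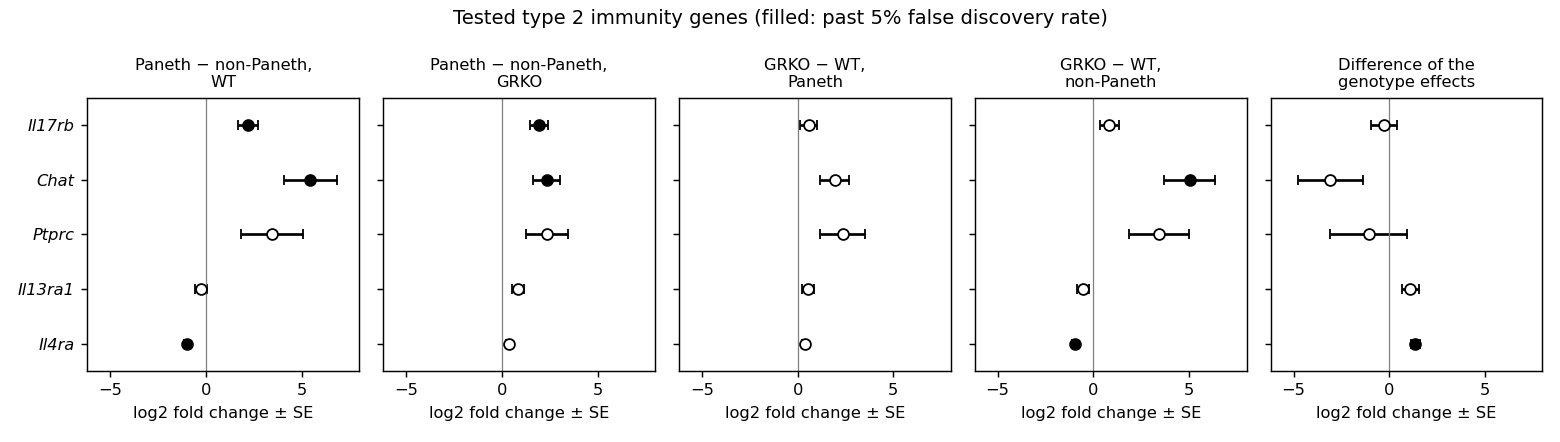
Log2 fold changes (x axis) from edgeR for the 5 tested genes, with standard errors derived from its F statistic and 1 panel for each of the 5 comparisons. Filled points passed the 5% false discovery rate: Chat is far to the right in WT Paneth against non-Paneth cells (5.43) and in GRKO against WT non-Paneth cells (5.02), and Il4ra lies at -1.0, -0.98 and, for the difference of the genotype effects, 1.37.

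The genes with opposite genotype changes in non-Paneth cells, Chat and Il4ra, are shown with the 250 bases before their start, as RefSeq gives them on GRCm38.p6. Chat lies on the minus strand (chr14:32465910-32466159) and Il4ra on the plus strand (chr7:125552021-125552270). Capitals mark the octamer ATGCAAAT, a site read by POU factors, the family of the tuft cell regulator Pou2f3.
Chat: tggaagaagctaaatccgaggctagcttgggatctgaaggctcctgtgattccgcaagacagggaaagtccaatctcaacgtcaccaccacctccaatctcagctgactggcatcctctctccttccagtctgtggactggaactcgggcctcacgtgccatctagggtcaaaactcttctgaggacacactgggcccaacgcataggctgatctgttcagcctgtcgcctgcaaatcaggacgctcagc
Il4ra: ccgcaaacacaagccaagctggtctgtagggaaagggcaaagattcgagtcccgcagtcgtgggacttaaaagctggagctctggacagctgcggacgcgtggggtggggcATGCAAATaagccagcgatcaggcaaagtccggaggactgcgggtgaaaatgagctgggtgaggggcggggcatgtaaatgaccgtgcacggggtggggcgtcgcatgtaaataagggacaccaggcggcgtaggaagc

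Among the 5 genes with an entry in the RefSeq table (Il17rb, Chat, Ptprc, Il13ra1 and Il4ra), only Il4ra held the octamer on either strand, with its first base at position -139 from the start. The octamer is found in 1.6% of the 32851 promoters of that length. The STAT6 motif TTCNNNNGAA, found in 5.85% of promoters, and the palindromic glucocorticoid response element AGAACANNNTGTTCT, found in 0.00913%, were searched on both strands and matched none of the 5. No match overlapped another. Such a match describes letters and shows no binding, and the absence of a match says only that these letters are not in this window.

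**Figure D2:**
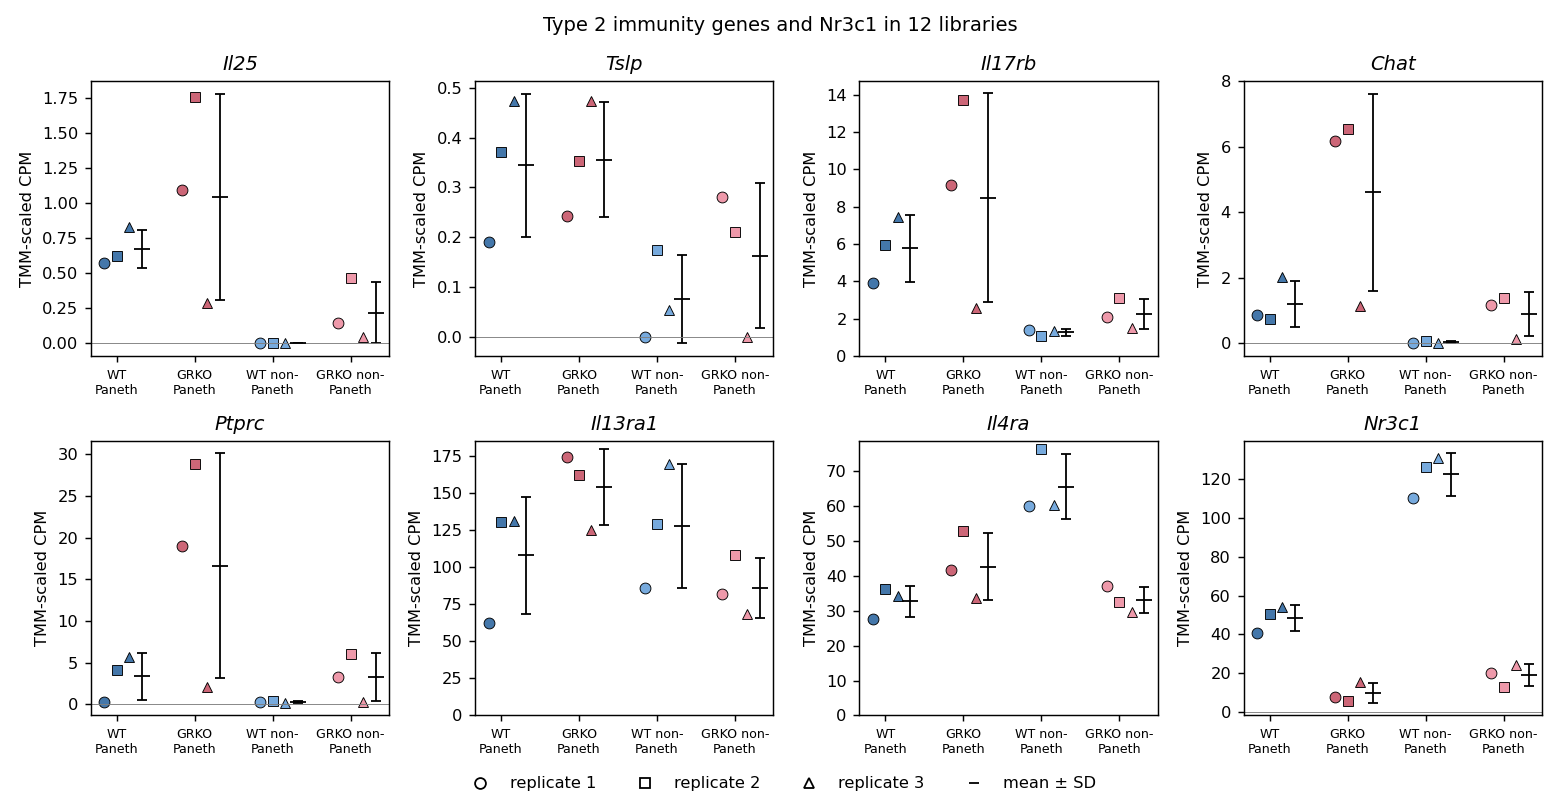
TMM-scaled CPM (y axis, linear and starting at or below 0) of the 7 genes and Nr3c1 in the 12 libraries, by group on the x axis, with a symbol per replicate number and the mean ± SD of 3 libraries beside each group. Il25, Il17rb, Chat and Ptprc are highest in GRKO Paneth replicates 1 and 2 and low in GRKO replicate 3, while Il4ra is highest in the 3 WT non-Paneth libraries, at 60.0 to 76.4 CPM.

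Il25 encodes the tuft cell cytokine that starts the circuit. The gene (ENSMUSG00000040770) lies on chromosome 14 from 55170152 to 55173294 on the plus strand of GRCm39, and a long noncoding RNA on the opposite strand, not in the count table, covers 69.0% of its exons. In WT Paneth replicates 1 to 3 it had 6, 5 and 7 counts, and in WT non-Paneth replicates it had none. In GRKO Paneth replicates it had 9, 20 and 3 counts, and in GRKO non-Paneth replicates 3, 11 and 1. Every Paneth library thus held Il25, no WT non-Paneth library did, and replicate 2 was the highest in both GRKO fractions. With a floor of 3 counts over the WT non-Paneth group, Il25 was at least 11.4-fold higher in WT Paneth than in WT non-Paneth cells, and at least 3.77-fold higher in GRKO non-Paneth than in WT non-Paneth cells. GRKO Paneth cells had 4.84 times the level of GRKO non-Paneth cells (95% exact interval 2.55 to 9.62) and 1.59 times that of WT Paneth cells (0.868 to 3.02). These floors and intervals cover counting error only.

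Without the filter on low counts, Il25 entered the edgeR fit and passed between the WT fractions (adjusted p = 1.57e-05, where 27.8% of 24077 genes passed), between the GRKO fractions (adjusted p = 0.0145, 23.1%) and between the genotypes in non-Paneth cells (adjusted p = 0.00527, 20.8%). It did not pass between the genotypes in Paneth cells (adjusted p = 0.698, 7.39%). DESeq2 gave adjusted p = 0.000221, 0.0432 and 0.0154 for the first 3 of these, where 42.3%, 31.9% and 32.1% of genes passed. The fit without the filter also took the adjusted p of Ptprc between the WT fractions from 0.113 to 2.92e-17, and the cause was not tested. The fitted fold changes of a gene with an empty group depend on the prior count and are not given.

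Tslp, which encodes the cytokine thymic stromal lymphopoietin, was the scarcest of the 7 in Paneth cells by counts. The gene (ENSMUSG00000024379) lies on chromosome 18 from 32948436 to 32952850 on the plus strand. In Paneth cells it had 2, 3 and 4 counts in WT and 2, 4 and 5 counts in GRKO replicates 1 to 3. In non-Paneth cells it had 0, 3 and 1 counts in WT and 6, 5 and 0 counts in GRKO replicates. On the TMM scale both Paneth groups, at 0.190 to 0.474 CPM in WT and 0.242 to 0.473 CPM in GRKO, lay above WT non-Paneth cells, at 0.174 CPM or less, and the other groups overlapped. With library totals only these groups overlapped as well. WT and GRKO Paneth replicate 1 were then at 0.157 and 0.16 CPM, below WT non-Paneth replicate 2 at 0.209 CPM. Summed over 3 libraries, the ratio of WT Paneth to WT non-Paneth cells was 4.29 (95% exact interval 1.2 to 19.1, from 9 and 4 counts). The ratio of GRKO to WT was 1.1 (0.413 to 2.99) in Paneth and 2.07 (0.614 to 8.92) in non-Paneth cells. Tslp passed no test where it could be fitted, and at this depth a genotype difference was not detectable.

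Il17rb encodes the subunit of the IL-25 receptor that binds IL-25, and is also a known tuft cell transcript. The gene (ENSMUSG00000015966) lies on chromosome 14 from 29716082 to 29730956 on the minus strand. In Paneth cells it was at 3.90, 5.94 and 7.46 CPM in WT and at 9.19, 13.7 and 2.56 CPM in GRKO replicates 1 to 3. In non-Paneth cells it was at 1.4, 1.05 and 1.34 CPM in WT and at 2.10, 3.10 and 1.51 CPM in GRKO replicates. All WT Paneth libraries lay above all WT non-Paneth libraries, and GRKO Paneth replicate 3 lay below the WT Paneth group.

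Il17rb was higher in WT Paneth than in WT non-Paneth cells by 2.18 ± 0.515 (log2 fold change ± SE, adjusted p = 0.00295), and in GRKO Paneth than in GRKO non-Paneth cells by 1.92 ± 0.469 (adjusted p = 0.00542), where the groups overlapped. Between the genotypes it did not pass in Paneth cells (0.57 ± 0.463, adjusted p = 0.451) or in non-Paneth cells (0.83 ± 0.511, adjusted p = 0.225), although the 3 GRKO non-Paneth libraries lay above the 3 WT non-Paneth ones. Without GRKO replicate 3 in both fractions the non-Paneth difference passed, at 1.0 (adjusted p = 0.0379, where 30.4% of 13255 genes passed). This setting was chosen after seeing the data and left out the lowest GRKO libraries for Il17rb, so it cannot serve as a test. Exons of Actr8, on the opposite strand, cover 38.8% of the Il17rb exons, and the sources do not state the strand that was counted. If the strands were not kept apart, the counting left out reads of the overlap, and the level of Il17rb would be too low. Actr8 lay between 17.3 and 23.7 CPM in every library and passed in none of the 5 comparisons.

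Chat encodes choline acetyltransferase, the enzyme that makes acetylcholine. The gene (ENSMUSG00000021919) lies on chromosome 14 from 32129369 to 32187946 on the minus strand. In Paneth cells it had 9, 6 and 17 counts in WT and 51, 74 and 12 counts in GRKO replicates 1 to 3, which was 0.855, 0.743 and 2.01 CPM against 6.17, 6.53 and 1.14 CPM. In non-Paneth cells it had 0, 1 and 0 counts in WT and 25, 33 and 3 counts in GRKO replicates, the latter 1.17, 1.38 and 0.129 CPM. A single count stood for Chat in all WT non-Paneth libraries together, and in both GRKO fractions replicates 1 and 2 lay well above replicate 3.

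Chat was higher in WT Paneth than in WT non-Paneth cells (5.43 ± 1.38, adjusted p = 0.00491), with a ratio of the summed counts of 61.0 (95% exact interval 10.2 to 2486, from 32 and 1 counts). It rose in GRKO against WT non-Paneth cells (5.02 ± 1.34, adjusted p = 0.0106), with a ratio of 46.0 (7.95 to 1845, from 61 and 1 counts), and the groups did not overlap. Between the GRKO fractions it was higher in Paneth cells (2.35 ± 0.709, adjusted p = 0.018), a call lost without GRKO Paneth replicate 1 (2.09, adjusted p = 0.0626) or 2 (2.0, adjusted p = 0.0736). In GRKO against WT Paneth cells it reached 1.94 ± 0.751 (adjusted p = 0.127). Without both GRKO replicate 3 libraries this last difference passed, at 2.36 (adjusted p = 0.04, where 0.845% of 13255 genes passed). That choice was made after seeing the data and dropped the lowest GRKO libraries for Chat, so it cannot serve as a test. With no filter on low counts edgeR called the same difference (adjusted p = 0.000836, where 7.39% of 24077 genes passed). The difference of the 2 genotype effects did not pass (-3.08 ± 1.70, adjusted p = 0.227).

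Ptprc encodes CD45, the surface protein against which the Paneth cell gate selects. The gene (ENSMUSG00000026395) lies on chromosome 1 from 137990599 to 138103446 on the minus strand. It was at 0.285, 4.08 and 5.68 CPM in WT Paneth and at 19.0, 28.8 and 2.08 CPM in GRKO Paneth replicates 1 to 3. In non-Paneth cells it was at 0.318, 0.407 and 0.160 CPM in WT and at 3.31, 6.08 and 0.302 CPM in GRKO replicates. GRKO replicates 1 and 2 were again the highest of their fraction, and replicate 3 lay within the range of WT in both.

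Ptprc passed in none of the 5 comparisons. It was 3.44 ± 1.64 higher in WT Paneth than in WT non-Paneth cells (adjusted p = 0.113), 2.36 ± 1.10 between the GRKO fractions (adjusted p = 0.126), 2.35 ± 1.18 in GRKO against WT Paneth cells (adjusted p = 0.239) and 3.43 ± 1.55 in GRKO against WT non-Paneth cells (adjusted p = 0.115). With a term for the replicate number within each genotype, which pairs the WT libraries, the WT fraction difference passed at 3.4 (adjusted p = 0.000102, where 53.2% of genes passed). The GRKO fraction difference passed as well, at 2.42 (adjusted p = 4.36e-05, 42.3%). DESeq2 called the WT fraction difference (adjusted p = 0.015) and the genotype difference in non-Paneth cells (adjusted p = 0.0236). With no filter on low counts edgeR called the genotype difference in Paneth cells (adjusted p = 5.48e-15, where 7.39% of genes passed). Without both GRKO replicate 3 libraries the genotype difference in non-Paneth cells passed at 3.93 (adjusted p = 0.0123, where 30.4% of genes passed). This setting, chosen after seeing the data, left out the lowest GRKO libraries for Ptprc and cannot serve as a test.

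Since Ptprc is the general leukocyte gene, 22 markers of immune cells were looked up beside it. They summed to 4.85 to 17.0 CPM in WT Paneth and 2.56 to 2.90 CPM in GRKO Paneth libraries, and to 8.61 to 17.3 and 4.90 to 5.69 CPM in WT and GRKO non-Paneth libraries. In GRKO Paneth cells, where Ptprc was highest, 14 of the 22 were at 0 counts in all libraries, among them Cd3e, Cd3d, Cd8a, Cd4, Csf1r, Gzma and Gzmb, and Itgam, at 1.43 CPM on average, had most of the rest. The 2 WT replicate 2 libraries had the highest sums of their groups, with Gzma at 5.94 CPM in Paneth and 2.91 CPM in non-Paneth cells. The sums of these markers were thus higher in WT than in GRKO, opposite to the means of Ptprc. None of 8 endothelial and stromal markers passed the filter.

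To set these genes beside the tuft cell signal of the same library, their counts were divided by the summed counts of the 25 markers, which were 3902, 5654 and 8333 for WT and 16483, 29271 and 9038 for GRKO Paneth replicates, and 148, 385 and 201 for WT and 8653, 14211 and 3257 for GRKO non-Paneth replicates. Chat had 2.31, 1.06 and 2.04 counts per 1000 marker counts in WT Paneth replicates, against 3.09, 2.53 and 1.33 for GRKO Paneth and 2.89, 2.32 and 0.921 for GRKO non-Paneth replicates. The 3 groups overlapped on this scale. Il25 had 0.84 to 1.54 per 1000 in WT Paneth libraries, against 0.332 to 0.683 for GRKO Paneth and 0.307 to 0.774 for GRKO non-Paneth libraries. The GRKO values of Il25 all lay below the WT Paneth values, but the intervals of single libraries overlapped.

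Il17rb had 10.5, 8.49 and 7.56 counts per 1000 marker counts in WT Paneth and 4.61, 5.30 and 2.99 in GRKO Paneth replicates, without overlap, and 5.20, 5.21 and 10.7 in GRKO non-Paneth replicates. In WT non-Paneth cells it had 46.8 to 149 per 1000, above every other group, where the tuft markers were near 0. Ptprc had 0.769, 5.84 and 5.76 per 1000 for WT Paneth replicates, 9.52, 11.1 and 2.43 for GRKO Paneth replicates and 8.21, 10.2 and 2.15 for GRKO non-Paneth replicates. For WT non-Paneth replicates Ptprc had 33.8, 18.2 and 14.9 per 1000, also above every other group, from 3 to 7 counts per library. On this scale too GRKO replicate 3 lay below replicates 1 and 2 in both fractions, without overlap of the intervals. These ratios were not tested.

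**Figure D3:**
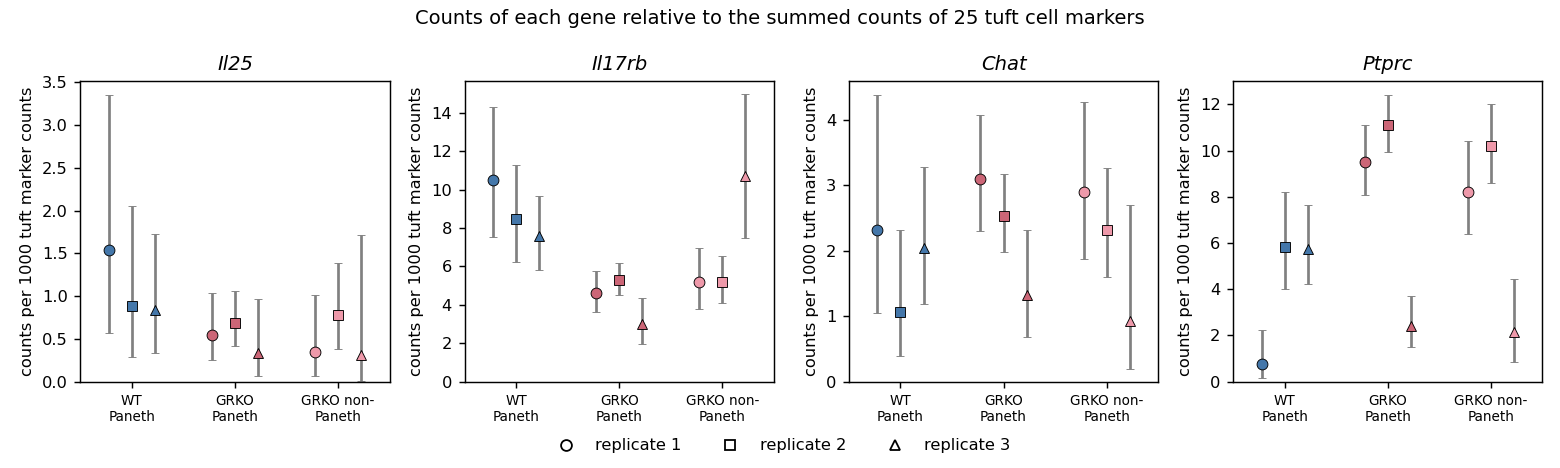
Counts of Il25, Il17rb, Chat and Ptprc per 1000 summed counts of 25 tuft cell markers (y axis, from 0) in each library of 3 groups (x axis), with 95% exact binomial intervals that cover counting error only. WT non-Paneth libraries are not drawn, since they held at most 385 marker counts. Il17rb is at 7.56 to 10.5 in WT Paneth and at 2.99 to 5.30 in GRKO Paneth libraries, and Ptprc is lower in GRKO replicate 3 (2.43 and 2.15) than in GRKO replicates 1 and 2.

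Il13ra1 encodes the chain that binds IL-13 and joins IL-4Rα in the receptor of epithelial cells. The gene (ENSMUSG00000017057) lies on the X chromosome from 35375461 to 35435331 on the plus strand. It was at 62.3, 130 and 131 CPM in WT Paneth and 174, 162 and 125 CPM in GRKO Paneth replicates 1 to 3, and at 85.5, 129 and 169 CPM in WT and 81.8, 108 and 68.0 CPM in GRKO non-Paneth replicates. The 4 groups overlapped widely, except that every GRKO Paneth library lay above every GRKO non-Paneth library.

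Il13ra1 passed in none of the comparisons. It differed by -0.25 ± 0.316 between the WT fractions (adjusted p = 0.539) and by 0.84 ± 0.317 between the GRKO fractions (adjusted p = 0.0585), a difference that is -0.15 with scaling by library totals only. The genotype difference was 0.52 ± 0.318 in Paneth (adjusted p = 0.32) and -0.57 ± 0.315 in non-Paneth cells (adjusted p = 0.18), and the difference of these was 1.09 ± 0.448 (adjusted p = 0.116). With no filter on low counts edgeR called the genotype difference in Paneth cells (adjusted p = 0.0148, where 7.39% of genes passed). With the replicate block the GRKO fraction difference passed (0.85, adjusted p = 7.37e-05), and so did the difference of the genotype effects (1.12, adjusted p = 0.000588). The GRKO fraction difference also passed without WT Paneth replicate 1 (adjusted p = 0.0196), GRKO non-Paneth replicate 2 (0.0281) or WT non-Paneth replicate 1 or 3 (0.0199 and 0.0299), and the difference of the effects without WT non-Paneth replicate 1 (adjusted p = 0.0465).

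Il4ra encodes IL-4Rα, the chain shared by the receptors for IL-4 and IL-13. The gene (ENSMUSG00000030748) lies on chromosome 7 from 125151079 to 125182844 on the plus strand. In non-Paneth cells it was at 60.0, 76.4 and 60.4 CPM in WT and at 37.2, 32.6 and 29.7 CPM in GRKO replicates 1 to 3. In Paneth cells it was at 27.7, 36.3 and 34.3 CPM in WT and at 41.6, 52.8 and 33.6 CPM in GRKO replicates. The WT non-Paneth libraries stood above all 9 others, and the GRKO non-Paneth libraries overlapped the WT Paneth ones.

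Il4ra fell in GRKO against WT non-Paneth cells by 0.98 on the log2 scale (SE 0.165, adjusted p = 0.000378), a 1.98-fold lower level. In Paneth cells the genotype difference was 0.38 ± 0.170 (adjusted p = 0.165), and the 2 effects differed by 1.37 ± 0.237 (adjusted p = 0.00183). Il4ra was also lower in WT Paneth than in WT non-Paneth cells, by 1.0 on the log2 scale (SE 0.169, adjusted p = 0.000145), and the GRKO fractions differed by 0.37 ± 0.166 (adjusted p = 0.0955), which turned to -0.60 with scaling by library totals only. This uncalled difference passed, at 0.46 to 0.54, without GRKO Paneth replicate 3, GRKO non-Paneth replicate 1 or any 1 of the 3 WT non-Paneth replicates (adjusted p = 0.0292 to 0.0407). It also passed with the replicate block (0.35, adjusted p = 0.0499), with a minimum of 10 counts (0.47, adjusted p = 0.0321), when the GRKO groups were fitted alone (0.46, adjusted p = 0.0436) and without both GRKO replicate 3 libraries (0.53, adjusted p = 0.0409). The last of these settings was chosen after seeing the data. The 3 calls of Il4ra held in all 22 alternatives, with -1.12 to -0.70 for the genotype difference in non-Paneth cells and 1.11 to 1.51 for the difference of the effects.

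Beside Il4ra, markers of other cells also moved in the non-Paneth libraries. A list of 7 enterocyte markers (Alpi, Apoa1, Apoa4, Fabp1, Fabp2, Sis and Vil1) summed to between 22309.8 and 24687 CPM in WT and between 4501 and 5591 CPM in GRKO non-Paneth cells, and to 575 to 2112 CPM in WT Paneth and 738 to 997 CPM in GRKO Paneth cells. All 7 fold changes were negative in GRKO non-Paneth cells, with a median of -2.31, and 3 of the 7 passed, near the 37.3% of all genes. That count was 1 without GRKO non-Paneth replicate 1 or 2, and it rose to 6 or 7 when WT Paneth replicate 1 or 2 was left out. In the same comparison all 7 had an unadjusted p under 0.05 in edgeR's test, as did 46.5% of all tested genes. DESeq2 called 6 of the 6 it tested (32.1% of all genes), and edgeR without the filter on low counts called all 7 (20.8%). Of 5 stem cell markers, 4 rose there, with a median of 0.56. The part of these cell types in the result for Il4ra was not tested.

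Levels were also divided by the merged length of all annotated exons of each gene, which can exceed the length of its transcripts. That length was 18764 bases for Ptprc and 1064 bases for Il25, and the order of the genes depends on it. In WT Paneth cells the order was Il13ra1 with 22.8 ± 8.29 CPM per kilobase (SD, n = 3), Il4ra with 3.29 ± 0.448, Il17rb with 0.905 ± 0.281, Il25 with 0.632 ± 0.129, Tslp with 0.259 ± 0.108, Chat with 0.194 ± 0.113 and Ptprc with 0.179 ± 0.148. The first 3 stood apart from each other by more than their spread, while Il17rb and Il25 did not differ beyond it, nor did Tslp, Chat and Ptprc among each other. In GRKO Paneth cells the levels were 32.5 ± 5.44 for Il13ra1, 4.28 ± 0.968 for Il4ra, 1.33 ± 0.878 for Il17rb, 0.983 ± 0.696 for Il25, 0.885 ± 0.719 for Ptprc, 0.743 ± 0.486 for Chat and 0.267 ± 0.0870 for Tslp. From Il17rb down to Tslp no neighbours in that order differed beyond the spread. In WT non-Paneth cells Il13ra1 (27.1 ± 8.86) and Il4ra (6.57 ± 0.936) were followed by Il17rb at 0.198 ± 0.0296, and the other 4 were at or below 0.0571. In GRKO non-Paneth cells Il13ra1 (18.2 ± 4.35) and Il4ra (3.32 ± 0.381) were again the highest, Il17rb was at 0.351 ± 0.127, and Il25, Ptprc, Chat and Tslp lay between 0.123 and 0.202, closer than their spread.

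The receptor and signalling genes around the circuit were described by a list of 20, of which 16 were tested. In GRKO against WT non-Paneth cells 5 fell and 1 rose, with a median of -0.15 beside 0.02 over all genes, and scaling by library totals turned this to 3 lower and 5 higher. This share of the list is near the 37.3% of all genes that passed, so that the count is no result about the list and the genes are given one by one. Jak2, a kinase of cytokine receptors, fell by 0.91 on the log2 scale (adjusted p = 0.000411), from 89.3 ± 7.51 to 47.6 ± 4.73 CPM (SD, n = 3). Il33, an alarmin gene, fell by 1.94 (adjusted p = 0.000587), Il17ra, the partner of Il17rb, by 0.51 (adjusted p = 0.0173), Tyk2 by 0.38 (adjusted p = 0.0182) and Cish, a feedback inhibitor of cytokine signalling, by 1.21 (adjusted p = 0.0114). Il1rap, a shared subunit of the IL-33 receptor, rose by 0.71 (adjusted p = 0.00242). Stat6, the transcription factor downstream of IL-4Rα, was at 146 ± 2.32 CPM in WT and 124 ± 10.3 CPM in GRKO non-Paneth cells (-0.23, adjusted p = 0.0859).

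None of the 16 passed between the genotypes in Paneth cells, where 14 fold changes were positive (median 0.25, and 0.03 over all genes). In that comparison 7 of the 16 had an unadjusted p under 0.05, against 26.7% of all genes, and DESeq2 called 2 higher, which is near its share of 12.3% over all genes. Without the filter on low counts edgeR called 3 of 18 higher, against 7.39% of all genes. Between the WT fractions 5 of 16 were lower in Paneth cells and none higher, a smaller share than the 50.7% of all genes, with a median of -0.25 (15 lower with scaling by library totals). They were Il33 (-4.07, adjusted p = 3e-06), Jak2 (-1.26, adjusted p = 9e-06), Tyk2 (-0.62, adjusted p = 0.000506), Stat6 (-0.62, adjusted p = 0.000144) and Stat3 (-0.71, adjusted p = 0.0269). Between the GRKO fractions 1 was higher (Crlf2, of the TSLP receptor, at 0.78, adjusted p = 0.0321) and 1 lower (Il33), but none higher and 15 lower with scaling by library totals. The genotype effect differed between the fractions for 4 of 16, against 18.7% of all genes, all with the higher fold change in Paneth cells, which were Jak2 (1.13, adjusted p = 0.00338), Tyk2 (0.65, adjusted p = 0.0154), Stat3 (1.14, adjusted p = 0.036) and Il17ra (0.69, adjusted p = 0.0428). With scaling by library totals 1 of the 16 passed, and 2 did without GRKO Paneth replicate 2, GRKO non-Paneth replicate 3 or WT non-Paneth replicate 2 or 3. Il4ra had the direction of Jak2, Tyk2, Il17ra and Stat3 in this test.

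The cytokines that other cells of the circuit make were absent or scarce. Il4, Il5, Il9 and Il13 had no counts in any of the 12 libraries, and Il7r and Il13ra2 had none either. Areg, which encodes the growth factor amphiregulin, was at 2.36 to 3.02 CPM in WT non-Paneth and 0.326 to 0.461 CPM in GRKO non-Paneth libraries, without overlap, and at most 0.355 CPM in Paneth libraries. Of these 5 cytokine genes only Areg passed the filter, and it was lower in GRKO than in WT non-Paneth cells (a log2 fold change of -2.78, adjusted p = 0.000301).

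A list of 13 epithelial genes known to respond to IL-13 held 10 that were tested. In GRKO against WT Paneth cells none passed with edgeR, 5 had an unadjusted p under 0.05 (26.7% of all genes) and DESeq2 called 5 (12.3% of all genes). There 9 of 10 fold changes were positive and the median was 2.76, beside 0.03 over all genes. Without the filter on low counts edgeR called 9 of 12 in that comparison, all higher in GRKO, where 7.39% of 24077 genes passed. Pla2g4c, which encodes a phospholipase, was at 0.95, 2.60 and 5.45 CPM in WT Paneth and at 129, 88.2 and 1.70 CPM in GRKO Paneth replicates 1 to 3. Clca1, a secreted goblet cell product, was at 42.4, 119 and 179 CPM in WT and at 1056, 918 and 257 CPM in GRKO Paneth replicates. Replicates 1 and 2 were high and replicate 3 was near WT, and GRKO Clca1 did not overlap WT (2.71, adjusted p = 0.0576).

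In non-Paneth cells Pla2g4c was at 3.95, 9.66 and 37.4 CPM in WT and at 253, 168 and 6.68 CPM in GRKO replicates (3.05, adjusted p = 0.153). Gsdmc4, a gasdermin gene, was at 44.9, 77.4 and 101 CPM in WT and at 272, 200 and 73.0 CPM in GRKO non-Paneth replicates (1.28, adjusted p = 0.288). GRKO replicates 1 and 2 lay above all WT libraries for both genes and replicate 3 did not. Of the 10 tested genes 1 rose there, against 37.3% of all genes called in either direction, Ang4, an antimicrobial ribonuclease gene that also marks Paneth cells (2.35, adjusted p = 0.00355), and 1 fell, the mucin gene Muc2 (-1.24, adjusted p = 0.00992). Gsdmc2, Gsdmc3 and Gsdmc4 resemble each other and could share reads, so that their values are uncertain.

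In either fraction GRKO replicates 1 and 2 were thus the highest 2 libraries for Il25, Il17rb, Chat and Ptprc and, of the IL-13 list, for Retnlb, Gsdmc2, Gsdmc3, Gsdmc4, Ang4 and Pla2g4c. Il4ra and Muc2 were lower in all GRKO than in all WT non-Paneth libraries, and Tslp, Il13ra1, Clca1, Fcgbp and Sprr2a3 did not have this order in both fractions. Without both GRKO replicate 3 libraries, 9 of 25 tuft cell markers rose in GRKO against WT Paneth cells, where 0.845% of 13255 genes passed. None of 11 tested genes of the IL-13 list passed there. That setting was chosen after seeing the data and left out the GRKO libraries with the lowest marker sums, so these calls are no test. The labels give no property by which GRKO replicate 3 differs, and what sets it apart was not tested.

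**Figure D4:**
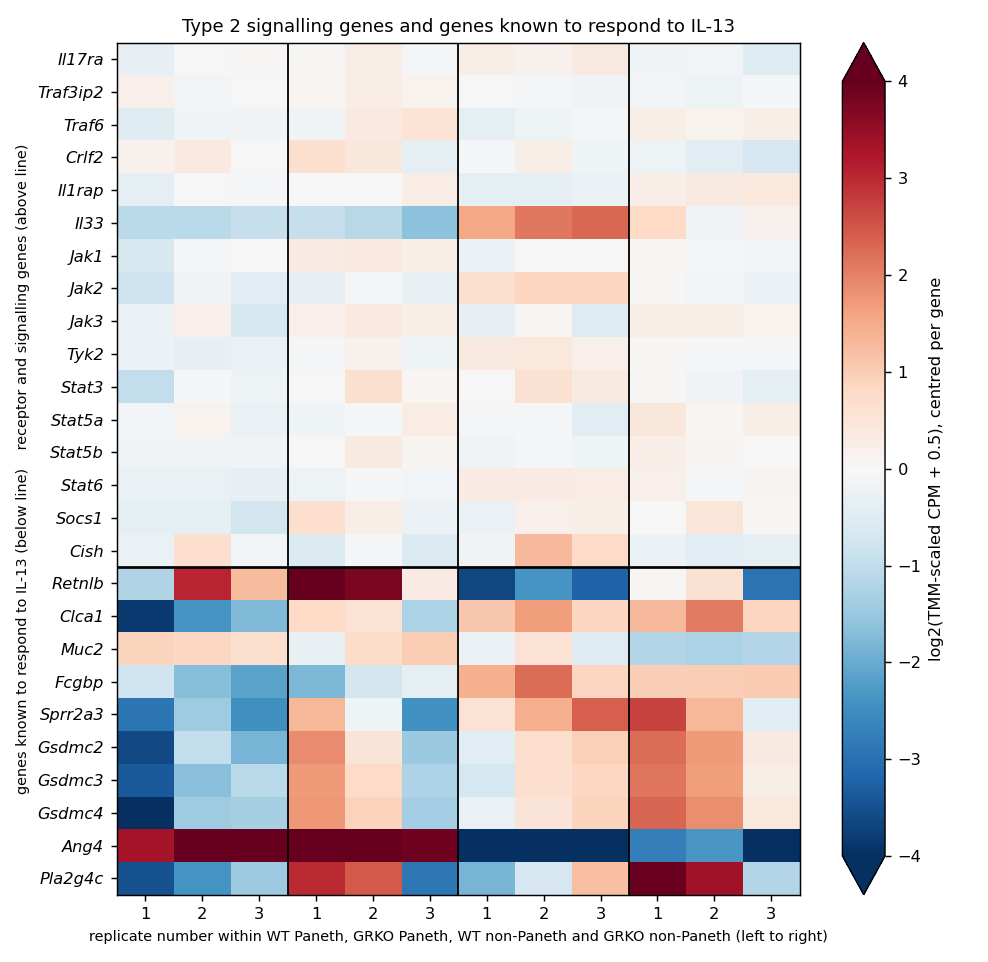
Log2(TMM-scaled CPM + 0.5), centred on the mean of each gene, for the 16 tested receptor and signalling genes (rows above the line) and the 10 tested genes known to respond to IL-13 (rows below it) in the 12 libraries (columns, by group and replicate number). The colour scale ends at -4 and 4. Retnlb, the Gsdmc genes, Sprr2a3 and Pla2g4c are redder in GRKO replicates 1 and 2 than in replicate 3 of the same fraction, and Il33 and Jak2 are reddest in the 3 WT non-Paneth libraries.

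The genes whose pattern over the 12 libraries was most like each tested gene were found by the root mean square difference of centred log2 values. For Il17rb they included Pcdh20 (0.264) and Sema6c (0.307), where the median over all compared genes was 1.15. For Chat they were Col15a1 (0.319), Ly6g6d (0.362) and Dlgap3 (0.369), with a median of 1.38, and for Ptprc Sucnr1 (0.586), which is one of the tuft cell markers, Kcnj16 (0.626) and Samd14 (0.671), with a median of 1.91. Il13ra1 was most like Fyb2 (0.14), Abhd2 (0.215) and Suco (0.226), with a median of 0.712. Il4ra was most like Arl8a (0.147), Itpkc (0.15) and B4galt4 (0.155), with a median of 0.673.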

How the data were processed

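RNA was sequenced from 12 libraries in 4 groups of 3. The authors deposited raw counts per gene, which they made by trimming single-end reads of a stranded TruSeq kit with Trimmomatic 0.39, aligning them with STAR 2.7.10a to mm39 with a GENCODE annotation and counting with its GeneCounts option, which leaves out reads that map to several places or overlap several genes. Which strand was counted is not given in sources used here.

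Of 55414 identifiers, 54749 (98.8%) were named through GENCODE vM39, also used for positions and exonic lengths. Tests used edgeR 4.0.16 under R 4.3.3 (filterByExpr, TMM, glmQLFit with robust estimates, glmQLFTest), on all 12 libraries with 1 mean per group, with Benjamini-Hochberg adjustment over 13057 genes. The standard errors given are the absolute log2 fold change divided by the square root of the F statistic, and add nothing to the test. The procedure was tested on simulated data. The alternatives were DESeq2 1.42.0, RLE factors, library totals only, no filter, at least 10 counts in every library of a group, fits on just the groups compared, a replicate block, a 1% threshold and each library left out. Leaving out both GRKO replicate 3 or both WT replicate 2 libraries was added after seeing the data.

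The 7 genes and the gene lists were chosen with earlier results of these data known. The genes named are the 7, Nr3c1, genes of 12 lists of markers and pathway genes, and for each tested gene the 3 most alike over the 12 libraries (on log2 CPM + 0.5, with a range of at least 1), of which 1 is not reported here. Genes that explain an overlap or a library were named after their values were seen. Pairing by replicate number was checked by the correlation of deviations from the group means. It was 0.35, 0.23 and 0.24 between the WT fractions, above a limit of 0.1, so that the numbers pair these libraries, and 0.013, 0.26 and 0.47 between the GRKO fractions, where replicate 1 lay under the limit. Between the genotypes it ranged from -0.098 to 0.17, so that the numbers do not pair the genotypes. The replicate block was set within each genotype for the fractions and the difference of the effects, and by replicate number alone between the genotypes. No 2 libraries of a group were duplicates (chi-square per degree of freedom 13.2 or more). The labels name no batch, and a batch that followed a group cannot be told apart from it. Tslp and Il25 have no promoter sequence here.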

Additional observations from a re-analysis of the deposited data

Results flagged for a closer look

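The genotype effect on Il4ra differed between the cell fractions by 1.37 on the log2 scale (SE 0.237, edgeR's quasi-likelihood test, adjusted p = 0.00183). The level was lower in 3 of 3 GRKO non-Paneth libraries than in every WT non-Paneth library, while in Paneth cells 2 of 3 GRKO libraries lay above every WT library. The enterocyte markers were lower in the same GRKO non-Paneth libraries, and their part in the difference was not tested.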

How the results depend on the processing

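Of the 7 genes, 5 were tested in the main fit. Of these, 3, 2, 0 and 2 passed between the WT fractions, the GRKO fractions, the genotypes in Paneth and the genotypes in non-Paneth cells. For the difference of the genotype effects 1 passed. The shares over all genes were 50.7%, 39.2%, 3.22%, 37.3% and 18.7%. Without the filter on low counts, which lets Il25 and Tslp in, the counts were 5, 5, 3, 6 and 3. There 27.8%, 23.1%, 7.39% and 20.8% of all genes passed and, for the difference, 2671 of 24077. DESeq2 gave 5 and 4 for the fractions, 4 for the genotypes in non-Paneth cells and 2 for the difference. Its shares over all genes were 42.3%, 31.9% and 32.1%, with 3029 of 12328 genes for the difference. A minimum of 10 counts gave 4 between the GRKO fractions, library totals only gave 1 and a false discovery rate of 1% gave 1. Over all genes these settings gave 4796 of 12749, 10785 of 13057 and 3458 of 13057. The 1% rate, or a fit on only the groups compared, in which Chat and Ptprc fell below the filter, gave 1 for the genotypes in non-Paneth cells. Over all genes 3002 of 13057 and 5767 of 12682 passed in these 2 settings. With a replicate block 5 passed between the GRKO fractions and 3 for the difference (Il4ra, Chat with adjusted p = 0.0418 and Il13ra1). With that block 42.3% of all genes passed between the GRKO fractions and 2977 of 13057 for the difference. Without both GRKO replicate 3 libraries 4, 1 and 4 passed between the GRKO fractions and between the genotypes in Paneth and in non-Paneth cells. That setting was chosen after seeing the data, and 3517, 112 and 4034 of 13255 genes passed in it. Leaving out single libraries gave 3 to 4, 1 to 5, 0 to 0, 2 to 3 and 1 to 2 in the order of the comparisons. Between the GRKO fractions it was 1 without GRKO Paneth replicate 1 or 2 and 5 without WT non-Paneth replicate 1. Over all genes 4606 of 13379, 4459 of 13320 and 4884 of 13307 passed in these 3 fits. The cause of these moves was not tested unless given.

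Signs turned for uncalled differences. Leaving out single libraries, Il13ra1 between the WT fractions ranged from -0.42 to 0.07, and was 0.02 without WT Paneth replicate 1 and positive also without WT non-Paneth replicate 3. With library totals only, Il13ra1 and Il4ra between the GRKO fractions were -0.15 and -0.60, where the median of all genes moved from -0.08 to -1.05. In the other comparisons that scaling moved it to -0.68, 0.05, 0.31 and -0.28. For Il17rb the difference of the genotype effects ranged from -0.81 to 0.18, with 0.18 without GRKO Paneth replicate 3 and 0.07 without GRKO non-Paneth replicate 2. The calls of Il4ra held in all 22 alternatives and those of Il17rb and Chat between the WT fractions in all 22 and 21 that could be fitted, while that of Chat between the GRKO fractions was lost in 5 of 22 and that of Il17rb in 1. Over all genes 0 to 1780 passed between the genotypes in Paneth cells, 420 in the main fit, and 3458 to 10785 between the GRKO fractions, 5116 in the main fit. Il25, Tslp and Chat rest on so few counts that small differences could not be seen.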

Other observations

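Beyond Chat, 9 other genes of acetylcholine handling and reception were measured, of which 5 were tested. The 3 tested receptor genes were higher in Paneth than in non-Paneth cells of both genotypes, while the nicotinic subunit gene Chrna10, below the filter, averaged 0.166 CPM in WT Paneth against 0.484 CPM in WT non-Paneth and 0.0631 against 0.478 CPM in GRKO cells. Chrm3, a muscarinic receptor gene, was at 19.4, 28.6 and 29.6 CPM in WT Paneth and at 3.12, 4.01 and 1.76 CPM in WT non-Paneth replicates 1 to 3 (log2 fold change 3.12, adjusted p = 7.16e-08), and the nicotinic subunit gene Chrnb4 was at 9.31, 18.7 and 17.0 CPM against 1.27, 1.11 and 0.642 CPM (3.90, adjusted p = 6.72e-07). The groups of both genes did not overlap. Chrm1, another muscarinic receptor gene, was also higher (2.46, adjusted p = 1.24e-06). Bche, which encodes butyrylcholinesterase, was lower in WT Paneth cells, at 16.7 to 32.2 CPM against 123 to 163 CPM (-2.69, adjusted p = 2.4e-06). These 3 receptor genes and Bche passed in the same direction between the GRKO fractions.

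Bche fell in GRKO against WT non-Paneth cells by 0.69 on the log2 scale (adjusted p = 0.0395), and this was the 1 genotype call among the 5 genes, where 37.3% of all genes passed. The call was lost with the replicate block (adjusted p = 0.0747), with library totals only (-0.40, adjusted p = 0.149), at a 1% false discovery rate and without GRKO Paneth replicate 1, WT Paneth replicate 1, GRKO non-Paneth replicate 1 or 2 or WT non-Paneth replicate 1 or 2 (-0.69 to -0.63, adjusted p = 0.0558 to 0.0969), and also without both WT replicate 2 libraries (-0.62, adjusted p = 0.0527). Slc5a7 and Slc10a4, which encode a choline transporter and a vesicular protein, had no more than 1 count in any library or none, and Slc18a3, the vesicular acetylcholine transporter gene that lies within Chat, was highest in GRKO Paneth replicate 2, at 1.5 CPM.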
